A study of Mus musculus with 18 samples.

Results

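Bulk RNA-seq of bone marrow-derived dendritic cells (DCs) was used to ask how far the response of gene expression to confinement depended on the genotype of cytosolic phospholipase A_2_ (cPLA_2_). Of the 18 libraries of the series, 12 entered this comparison, with 3 libraries in each of 4 groups, and the 6 libraries of LPS-treated cells were left out of it. The groups were nonconfined cPLA_2_ WT DCs and nonconfined cPLA_2_ KO DCs, both taken without treatment at the end of the culture, and DCs of either genotype that were held under a ceiling of 3 µm and collected 4 h later. Nonconfined cells were thus not described as held for the same additional hours. All cells were grown for 10 days from bone marrow in medium with serum, antibiotics and GM-CSF from the supernatant of transfected J558 cells. The knockout was conditional: mice with a *Pla2g4a* allele edited by CRISPR–Cas9 were crossed with *Itgax-cre* mice, in which Cre is driven by the gene encoding CD11c, so that cells with little CD11c may keep the gene. The culture also yields granulocytes and macrophages, and the semiadherent fraction was taken as DCs. Mice of both sexes were used in the study, and its breeders had been backcrossed to C57BL/6 mice. Its methods state an age range in weeks for the marrow donors in general. The labels give neither age nor sex for these libraries. Library preparation used the TruSeq Stranded mRNA and the Stranded mRNA Prep Ligation kits, without a statement of which library was made with which. The protocol text mentions LPS for all samples, whereas titles and treatment entries name it for those groups alone; titles were followed. The study calls its libraries biological replicates, but does not state for these whether each came from a separate mouse or culture, so p-values measure the spread between these libraries only.

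cPLA_2_, encoded by *Pla2g4a*, releases arachidonic acid from membrane phospholipids when it binds to the nuclear envelope, and it is activated when a cell is squeezed enough to stretch its nucleus. Arachidonic acid is the precursor of prostaglandins and leukotrienes. DCs patrol tissues, and on maturation they raise co-stimulatory ligands, cytokines and the chemokine receptor CCR7, which guides them to lymph nodes. Many of these genes are targets of NF-κB, and type I interferons induce a further large set of antiviral genes through STAT and IRF factors.

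The interaction was the change with confinement in cPLA_2_ KO DCs minus the change in cPLA_2_ WT DCs, on the scale of log2(normalized count + 1). A negative interaction means that confinement raised a gene less, or lowered it more, in cPLA_2_ KO DCs, and a positive interaction the opposite. Recovered reads on genes ranged from 34689393 to 45020354 in nonconfined cPLA_2_ WT libraries and from 36034820 to 45021696 in nonconfined cPLA_2_ KO libraries. The ranges were 33592725 to 45769637 in confined cPLA_2_ WT and 33027230 to 39400286 in confined cPLA_2_ KO libraries. Values near 0 rest on few reads, and fitted interactions of genes with such groups depend on the pseudocount. Levels are given for several of these genes, though not always for every group.

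*Pla2g4a* (chr1:149705372-149837041, mm39) was measured at 697, 686 and 770.4 normalized counts in the nonconfined cPLA_2_ WT libraries and at 548, 542 and 533 in the nonconfined cPLA_2_ KO libraries. After confinement it was at 1369, 1430.3 and 1321 in cPLA_2_ WT and at 923, 871 and 919.5 in cPLA_2_ KO libraries. Within each condition every cPLA_2_ KO library lay below every cPLA_2_ WT library, but the mRNA was present in all of them, and whether it lacked exons cannot be read from counts summed over the gene. The interaction of *Pla2g4a* was -0.20 (standard error, SE, 0.09, 95% confidence interval -0.39 to -0.00, limma adjusted p = 0.116), which did not pass the threshold.

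The genotypes also differed in the sex of the donor cells. The Y-linked gene *Ddx3y* was at 3.05, 0 and 1.97 and 0, 1.72 and 2.37 normalized counts in nonconfined and confined cPLA_2_ WT libraries, and at 949, 981 and 874 and 1036, 920.2 and 948 in the cPLA_2_ KO libraries. *Xist*, the RNA of the inactive X chromosome, was present in all 12 libraries with 27953, 33681 and 30681 normalized counts in nonconfined cPLA_2_ WT and 12153, 19081 and 14328 in nonconfined cPLA_2_ KO libraries. After confinement it was at 22734, 33482 and 29759 for cPLA_2_ WT and 16979.6, 24835 and 20600 for cPLA_2_ KO. The groups were apart before confinement and overlapped after it. *Xist* had an interaction of 0.58 (SE 0.20, limma adjusted p = 0.0347), which lost the threshold in 7 of the 12 fits that left out a library (range 0.42 to 0.76), whereas *Ddx3y* did not pass it (interaction 0.18, limma adjusted p = 0.86). Whether the mix of donors in the cPLA_2_ KO libraries differed between conditions was not tested. The cPLA_2_ KO libraries thus held both RNAs, and the cPLA_2_ WT libraries only *Xist* above a few counts. The effect of the genotype and that of the donors' sex or mouse of origin therefore cannot be told apart in any genotype difference or in its change with confinement. In the LPS libraries, which enter only an alternative fit, *Ddx3y* did not follow the labels.

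The label of DCs was checked against markers. All 14 DC markers were in the table and none was at 0 in all libraries. Their summed level was 372257 ± 13380.4 normalized counts (SD, n = 3) for cPLA_2_ WT and 432662 ± 11631 for cPLA_2_ KO before confinement. After it the sums were 316884 ± 11027 and 305843 ± 8691. *Cd74*, the invariant chain, was the most abundant gene and made up 64.6% of the summed level. Without it the sums were 131698 for cPLA_2_ WT and 158498 for cPLA_2_ KO before confinement, and 108211 and 107620 after it. *Itgax* was at 6289, 6386 and 6167 normalized counts in nonconfined cPLA_2_ WT libraries, and *Xcr1* and *Clec9a*, which mark the conventional DC1 subset, stayed at or below 30.9 and 38.4 in every library. Genes of other cells, macrophages among them, were present as well. The neutrophil markers summed to 358549 in nonconfined cPLA_2_ WT and 495633 in nonconfined cPLA_2_ KO libraries (most abundant *S100a9*), and the 7 eosinophil markers in the table to 28634 and 66705 (most abundant *Prg2*). In these bulk samples, fewer cells of a type and less RNA per cell cannot be told apart.

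Among 17255 genes tested, 1106 (6.41%) were called lower, with an adjusted p under 0.05 and an interaction below -1, and 274 (1.59%) were called higher, with an interaction above 1. With the adjusted p alone, 2868 genes (16.6%) were lower and 2403 (13.9%) higher. Higher calls were 19.9% of all calls, and 39.0% when each library was scaled to the same total, which also moved the median interaction of all genes from 0.05 to 0.24. Small positive and negative interactions therefore depend on the scaling, and the medians of the lists below are to be read against these values. Counts of members called in the lists are likewise to be read beside 6.41% lower and 1.59% higher of all genes tested. Of the genes called lower, 346 rose with confinement in both genotypes, 342 rose in cPLA_2_ WT and did not pass the test in cPLA_2_ KO DCs, 298 rose in cPLA_2_ WT and fell in cPLA_2_ KO DCs, and 89 passed only as a fall in cPLA_2_ KO DCs. Their median level was 253 normalized counts, against 363 for all genes tested. Of the genes called higher, 127 fell in cPLA_2_ WT DCs and did not pass in cPLA_2_ KO DCs, 68 passed only as a rise in cPLA_2_ KO DCs, and 42 fell in both. Their median level was lower, at 52.8 normalized counts. The genotypes already differed by the adjusted p before confinement for 284 (25.7%) of the genes called lower and 61 (22.3%) of those called higher. For all genes tested the count was 2280 (13.2%). The nonconfined libraries also enter the interaction, so these shares are not independent of the calls. Among all 1106 genes called lower, the difference before confinement was larger in size than that after it for 105 (9.49%), and among all 274 called higher for 60 (21.9%).

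**Figure D1:**
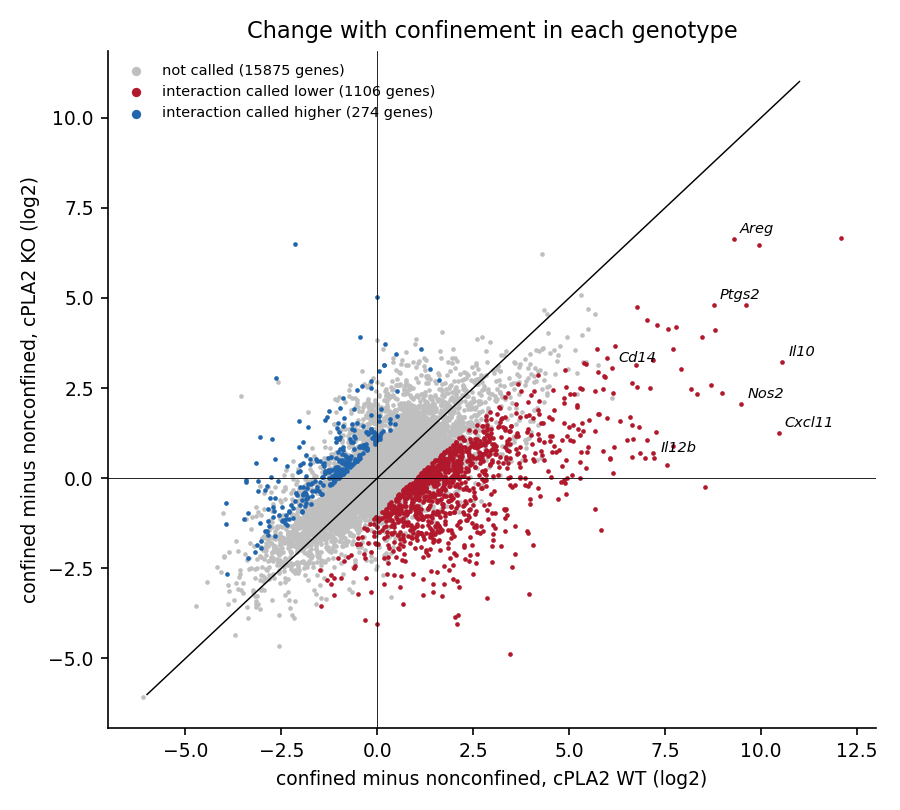
Change with confinement (log2) in cPLA_2_ WT DCs on the x axis and in cPLA_2_ KO DCs on the y axis, each point a gene tested and the line marking equal changes. The 1106 genes called lower lie below the line, most of them to the right, and the 274 genes called higher lie above it.

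Cytokine genes were for the most part called lower. Of 24 cytokine genes tested, 17 were called lower and none higher, with 21 lower and 0 higher by the adjusted p alone. Their median interaction was -2.51, or -2.12 when groups with 0 reads were set to 3 reads over the group, against 0.05 for all genes tested. The member *Il33* passed the filter through the confined cPLA_2_ WT libraries alone, so its call adds no independent support. Its means were 0.66 and 0.52 in nonconfined and 45.7 and 0 in confined cPLA_2_ WT and cPLA_2_ KO libraries. *Il12b*, the p40 subunit shared by IL-12 and IL-23 (chr11:44290888-44305504), was at 179, 169.7 and 184 normalized counts in nonconfined cPLA_2_ WT and 223, 248 and 252 in nonconfined cPLA_2_ KO libraries. After confinement it was at 27234, 25842 and 26344 in cPLA_2_ WT and at 391, 377 and 299 in cPLA_2_ KO libraries. The confined cPLA_2_ WT libraries stood far above all others, and the interaction was -6.66 (SE 0.12, limma adjusted p = 2.01e-19). *Il6*, a pyrogenic and B cell-stimulating cytokine, was at 75.4, 83.6 and 91.4 and 133, 104 and 118 in nonconfined cPLA_2_ WT and cPLA_2_ KO libraries, and at 13389, 12713 and 12474 and 296, 307 and 267 after confinement. It rose in both genotypes, and the groups did not overlap after confinement (interaction -5.97, SE 0.14, limma adjusted p = 6.16e-18). *Il10*, an anti-inflammatory cytokine, had no read in nonconfined cPLA_2_ WT libraries and 3.13, 0 and 0 normalized counts in nonconfined cPLA_2_ KO libraries, and reached 1466, 1454 and 1558 in confined cPLA_2_ WT but 18.3, 16 and 9.11 in confined cPLA_2_ KO libraries. Its fitted interaction of -7.33 depends on the pseudocount and is no bound. The most abundant member, *Il1rn*, which blocks the IL-1 receptor, rose in both genotypes with an interaction of -1.54 (limma adjusted p = 2.39e-15). Cytokine receptors moved less: of 23, 5 were called lower and 0 higher, beside 6.41% and 1.59% of all genes tested. By the adjusted p alone 11 were lower and 6 higher, or 8 and 9 with the same total per library. The median of these receptors was -0.20, or -0.01 with that scaling. Among them *Il2ra*, the α chain of the IL-2 receptor, rose in cPLA_2_ WT and fell in cPLA_2_ KO DCs (interaction -2.16).

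**Figure D2:**
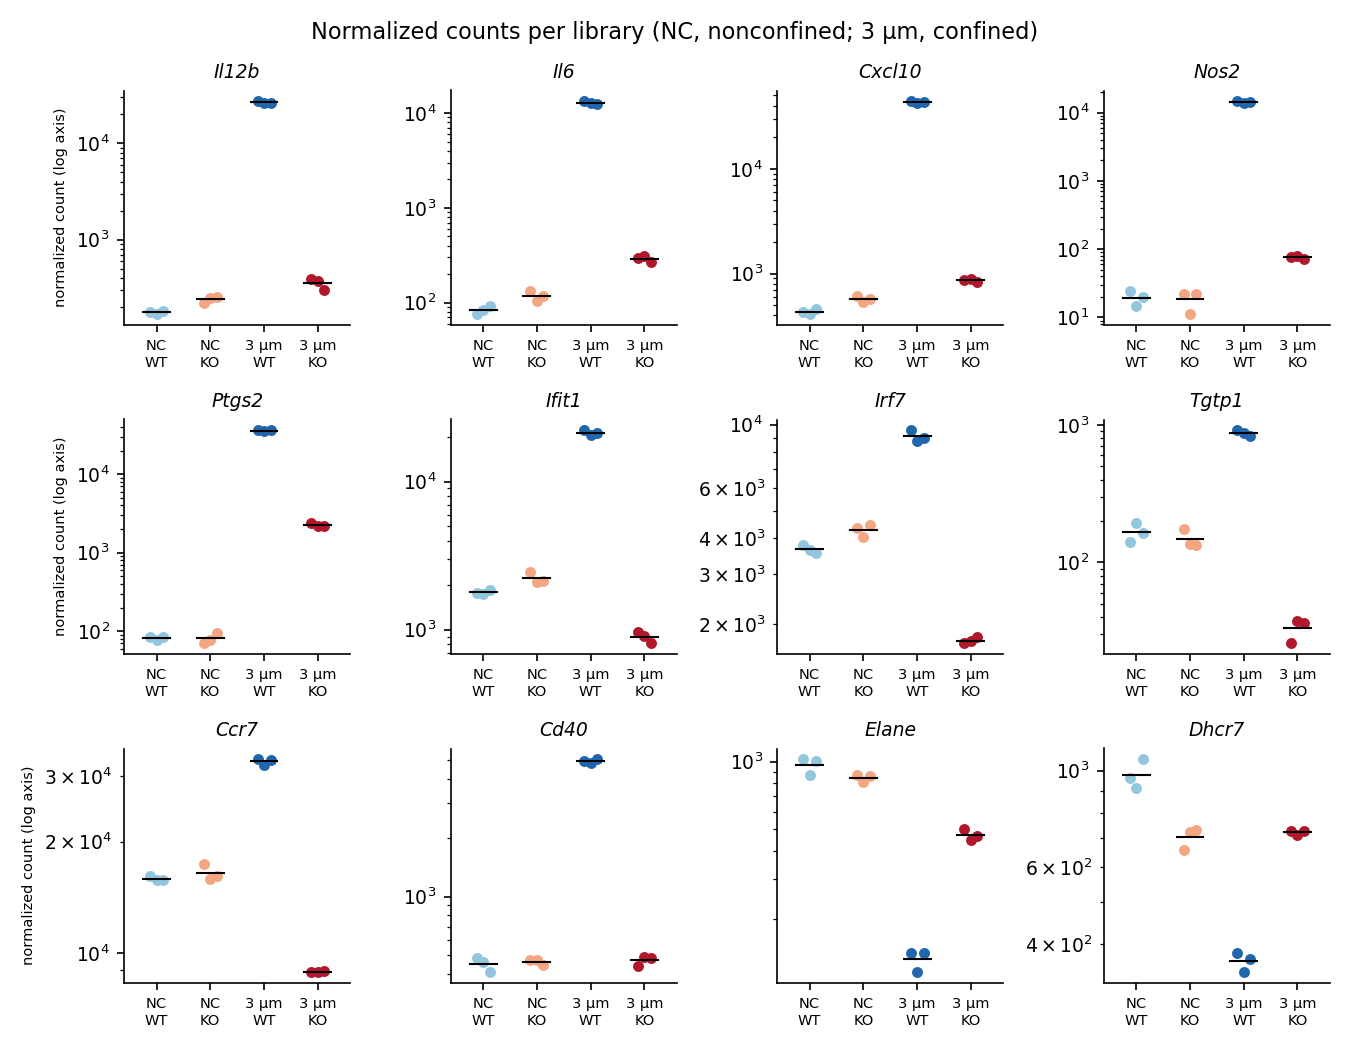
Normalized counts of 12 genes in each of the 12 libraries on log axes, with points for libraries, lines for group means and the groups along the x axis (NC, nonconfined; 3 µm, confined). For *Il12b*, *Il6*, *Cxcl10*, *Nos2* and *Ptgs2* the confined cPLA_2_ WT libraries stand above all others, *Ifit1*, *Irf7*, *Tgtp1* and *Ccr7* go opposite ways in the genotypes, and *Elane* falls further in cPLA_2_ WT DCs.

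Chemokine ligands followed the same direction. Of 19 tested, 12 were called lower and 0 higher, with a median interaction of -1.59. *Cxcl10*, an interferon-induced ligand of CXCR3, was at 429, 412 and 459.9 in nonconfined cPLA_2_ WT and 609.6, 542 and 571 in nonconfined cPLA_2_ KO libraries, and at 44120.5, 42419 and 42869 and 864, 899 and 841 after confinement. The confined cPLA_2_ WT libraries were again the high ones, with an interaction of -6.04 (SE 0.08, limma adjusted p = 2.3e-21). *Cxcl11*, another CXCR3 ligand, was near 0 outside confined cPLA_2_ WT libraries, where it was at 2356, 2163 and 2184, with 8.63, 17.1 and 9.11 in confined cPLA_2_ KO libraries. Its fitted interaction of -9.21 depends on the pseudocount. The most abundant ligand, *Ccl6*, did not pass the test (interaction 0.12, limma adjusted p = 0.133), and passed it as higher with the same total per library. Among chemokine receptors, 3 of 11 were called lower, beside 6.41% of all genes tested. By the adjusted p alone 5 were lower and 2 higher (*Ccr2*, 0.48, and *Cxcr4*, 0.41). *Ccr7* was at 16166, 15734 and 15753 normalized counts in nonconfined cPLA_2_ WT and 17366, 15815 and 16173 in nonconfined cPLA_2_ KO libraries, and at 33397, 32199 and 33237 in confined cPLA_2_ WT and 8907, 8891 and 8957 in confined cPLA_2_ KO libraries. The nonconfined groups overlapped, and the confined groups went opposite ways from them, with an interaction of -1.93 (SE 0.06, limma adjusted p = 1.65e-16). *Ccrl2*, which binds the chemoattractant chemerin, had an interaction of -3.66, and *Ccr3*, an eosinophil receptor, one of -3.06.

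Inflammatory effector enzymes and secreted proteins were for the most part called lower. Of 20 inflammatory effector genes, 13 were called lower, 19 were lower by the adjusted p alone, and the median interaction was -1.73. The 1 member above 0 (1.27) did not pass the test. *Nos2*, the inducible nitric oxide synthase, was at 24.4, 14.5 and 19.7 and 21.9, 11.2 and 22.3 in nonconfined cPLA_2_ WT and cPLA_2_ KO libraries and at 14692, 13855 and 14383 and 77.7, 78.9 and 72 after confinement. The rise was present in both genotypes, but every confined cPLA_2_ WT library exceeded every confined cPLA_2_ KO library by far (interaction -7.43, SE 0.30, limma adjusted p = 3.13e-14). *Saa3*, a serum amyloid protein, and *Acod1*, which makes itaconate, had interactions of -4.56 and -2.79. *Lcn2*, a siderophore-binding protein that is also a neutrophil marker, had one of -1.24. Outside the lists, *Plat*, tissue plasminogen activator, was at 846, 816 and 893 in confined cPLA_2_ WT and 2.16, 23.5 and 9.11 in confined cPLA_2_ KO libraries, and *Ppp1r3g*, a glycogen-targeting subunit of protein phosphatase 1, at 595, 578 and 571 and 23.7, 23.5 and 7.29. The locus *Gm3255* (fitted interaction -7.17) had another pattern, with no read in the nonconfined cPLA_2_ WT group, 193, 131 and 226 normalized counts in nonconfined cPLA_2_ KO, 204, 161 and 194 in confined cPLA_2_ WT and 147, 299.6 and 284 in confined cPLA_2_ KO libraries. *U90926* was called lower as well (fitted interaction -6.61), with nonconfined cPLA_2_ KO libraries at 0 reads and 736, 721 and 709.5 normalized counts in confined cPLA_2_ WT libraries, and was not called with edgeR. It was tested in only 9 of the 12 fits that left out a library. It thus passed the filter through the confined cPLA_2_ WT libraries alone, and its call adds no independent support.

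Antiviral genes induced by interferon were called lower almost throughout. Of 36 effectors tested, 33 were called lower and none higher, 35 were lower by the adjusted p alone, and the median interaction was -2.61. Of these genes, 32 rose with confinement in cPLA_2_ WT and fell in cPLA_2_ KO DCs. *Ifit1*, which binds viral RNA (chr19:34618279-34627409), was at 1781, 1749 and 1843 and 2464, 2111 and 2133 in nonconfined cPLA_2_ WT and cPLA_2_ KO libraries and at 22292, 20656 and 21168 and 972, 912 and 812 after confinement. The confined cPLA_2_ KO libraries lay below all nonconfined ones and the confined cPLA_2_ WT libraries above all of them (interaction -4.89, SE 0.09, limma adjusted p = 2.99e-19). *Rsad2*, which encodes viperin, had an interaction of -4.99 and *Oasl1*, of the oligoadenylate synthetase family, one of -4.47. For both, the change in cPLA_2_ KO DCs did not pass the test. *Bst2*, the most abundant member, which tethers virions, fell in cPLA_2_ KO DCs alone by the test (interaction -0.64, limma adjusted p = 3.55e-07).

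Interferon-inducible GTPases showed the same split. Of 16 tested, 13 were called lower, all 13 of which rose in cPLA_2_ WT and fell in cPLA_2_ KO DCs, and the median was -2.66. *Gbp5*, a guanylate-binding protein, was at 1578, 1661 and 1681 and 1248, 1415 and 1469 in nonconfined cPLA_2_ WT and cPLA_2_ KO libraries and at 13206, 13086 and 13189 and 611, 493 and 561 after confinement. The confined groups lay on opposite sides of the nonconfined libraries, with an interaction of -4.32 (SE 0.10, limma adjusted p = 4.8e-18). *Tgtp1* and *Tgtp2* had interactions of -4.53 and -3.62, with the limit that the copies are near-identical and may share reads. *Irgm1*, the most abundant member, which acts on membranes of vacuoles with pathogens, had one of -2.28. Of 20 interferon ligands, receptors and signal transducers, 11 were called lower and the median was -1.25. *Irf7*, which amplifies interferon transcription, was at 3798, 3627 and 3565 and 4342, 4056 and 4463 in nonconfined libraries and at 9564, 8741 and 9009 in confined cPLA_2_ WT against 1719, 1745 and 1803 in confined cPLA_2_ KO libraries. These groups did not overlap (interaction -2.60, SE 0.07, limma adjusted p = 4.49e-17). *Socs3*, a feedback inhibitor of cytokine signals, had an interaction of -2.86. *Ifnb1*, interferon β, had means of 4.69 and 1.91 in nonconfined cPLA_2_ WT and cPLA_2_ KO libraries. It reached 105, 92.6 and 103 in confined cPLA_2_ WT and 11.9, 6.4 and 6.38 in confined cPLA_2_ KO libraries. Its interaction of -2.30 (limma adjusted p = 0.0341) lost the call in 8 of the 12 fits that left out a library, over which it ranged from -2.94 to -1.80. *Irf5*, the most abundant member, had an interaction of 0.00.

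NF-κB genes were largely lower in the interaction while rising in both genotypes. Of 28 subunits, kinases and feedback inhibitors, 16 were called lower and none higher. By the adjusted p alone 25 were lower and 1 higher (*Ikbkg*, 0.36). With confinement 24 of the 28 rose in both genotypes. The median interaction was -1.09. *Nfkbiz*, an inducible co-regulator, was at 331, 283 and 284 and 258, 303 and 307 in nonconfined cPLA_2_ WT and cPLA_2_ KO libraries and at 16332, 16112 and 16025 and 1000.3, 1025 and 969.6 after confinement. The confined groups were far apart, with an interaction of -3.97 (SE 0.10, limma adjusted p = 3.49e-17). *Tnfaip3*, the deubiquitinase A20, had an interaction of -3.33, *Nfkbia*, the inhibitor IκBα, one of -2.11, and *Nfkb1* one of -1.62. *Ikbkb*, the kinase IKKβ, moved little in comparison (interaction -0.53, limma adjusted p = 1.96e-06). Among 25 immediate early and AP-1 genes, 9 were called lower, with a median of -0.79, and *Dusp2*, a MAPK phosphatase, led them (-3.75).

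Genes of prostanoid and cAMP signalling lie nearest to the product of cPLA_2_. The prostanoid list was split, whereas members of the cAMP list were more often lower than higher. Of 26 prostanoid and leukotriene enzymes and receptors, 5 were called lower and 0 higher, beside 6.41% and 1.59% of all genes tested. By the adjusted p alone 9 were lower and 8 higher, or 7 and 11 with the same total per library. This scaling also turned the median of -0.07 positive, to 0.12. *Ptgs2*, the inducible cyclooxygenase, was at 84.6, 76.7 and 84.5 and 70.5, 77.3 and 95.1 in nonconfined libraries and at 36417, 35339 and 36222 in confined cPLA_2_ WT against 2387, 2179.6 and 2199.9 in confined cPLA_2_ KO libraries. It rose in both genotypes (by 8.76 and 4.79 on the log2 scale), with an interaction of -3.97 (SE 0.12, limma adjusted p = 3.5e-16). *Ptges*, which makes prostaglandin E_2_, had an interaction of -4.32, and *Cysltr2*, a leukotriene receptor, one of -1.91. Of 17 cAMP and CREB response genes, 9 were called lower and 0 higher, with a median of -1.45. By the adjusted p alone 10 were lower and 3 higher. *Areg*, a ligand of the EGF receptor, was near 0 in nonconfined cells and reached 2726, 2675 and 2651 in confined cPLA_2_ WT and 268, 283 and 213 in confined cPLA_2_ KO libraries. Its interaction was -2.65, or -2.49 and -3.06 at pseudocounts of 0.5 and 5. *Gem*, a GTPase, rose in cPLA_2_ WT and fell in cPLA_2_ KO DCs (interaction -3.60), and *Dusp1* had one of -2.63.

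Co-stimulatory ligands signal to T cells. Of 16 co-stimulatory and co-inhibitory ligands, 12 were called lower and none higher, with a median of -1.45. *Cd40*, which receives help from T cells, was at 482, 462 and 411 and 473, 473 and 444 in nonconfined libraries and at 4930.1, 4801 and 5040.1 in confined cPLA_2_ WT and 440.2, 493 and 485 in confined cPLA_2_ KO libraries. The latter overlapped the nonconfined libraries, and the interaction was -3.42 (SE 0.10, limma adjusted p = 1.9e-16). *Tnfsf15* and *Tnfsf9*, ligands of the TNF family, had interactions of -4.84 and -3.41, and *Cd83*, a maturation marker, one of -2.17. Of 23 genes of migratory and mature DCs, 14 were called lower, with a median of -1.26, among them *Marcksl1* (-2.52) and the most abundant, the chemokine *Ccl22* (-1.56). MHC genes moved less. Of 17 class I presentation genes 2 were called lower, beside 6.41% of all genes tested. These were *Nlrc5*, the transactivator of class I genes (-1.60), and the peptide transporter *Tap1* (-1.37). By the adjusted p alone 14 class I genes were lower and 1 higher. None of 13 class II genes was called, with 6 lower and 0 higher by the adjusted p alone. With the same total per library 4 class II genes were lower and 3 higher, and the median moved from -0.26 to -0.07. Of 28 pattern receptors and inflammasome genes 7 were called lower, with a median of -0.37 (-0.18 with the same total per library), *Cd14*, a co-receptor for LPS, at -3.06, *Casp4*, which senses LPS in the cytosol, at -2.26 and *Tlr3*, a receptor of double-stranded RNA, at -2.21. By the adjusted p alone 15 of them were lower and 4 higher, or 13 and 9 with the same total per library. Of 16 survival genes 5 were called lower, with *Cflar*, an inhibitor of caspase-8, at -1.41. Of 23 myeloid and DC transcription factors 3 were called lower, beside 6.41% of all genes tested, with *Batf3* at -1.22. By the adjusted p alone 10 were lower and 4 higher, and the list's median of -0.17 turned to 0.02 with the same total per library, with 9 lower and 8 higher.

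**Figure D3:**
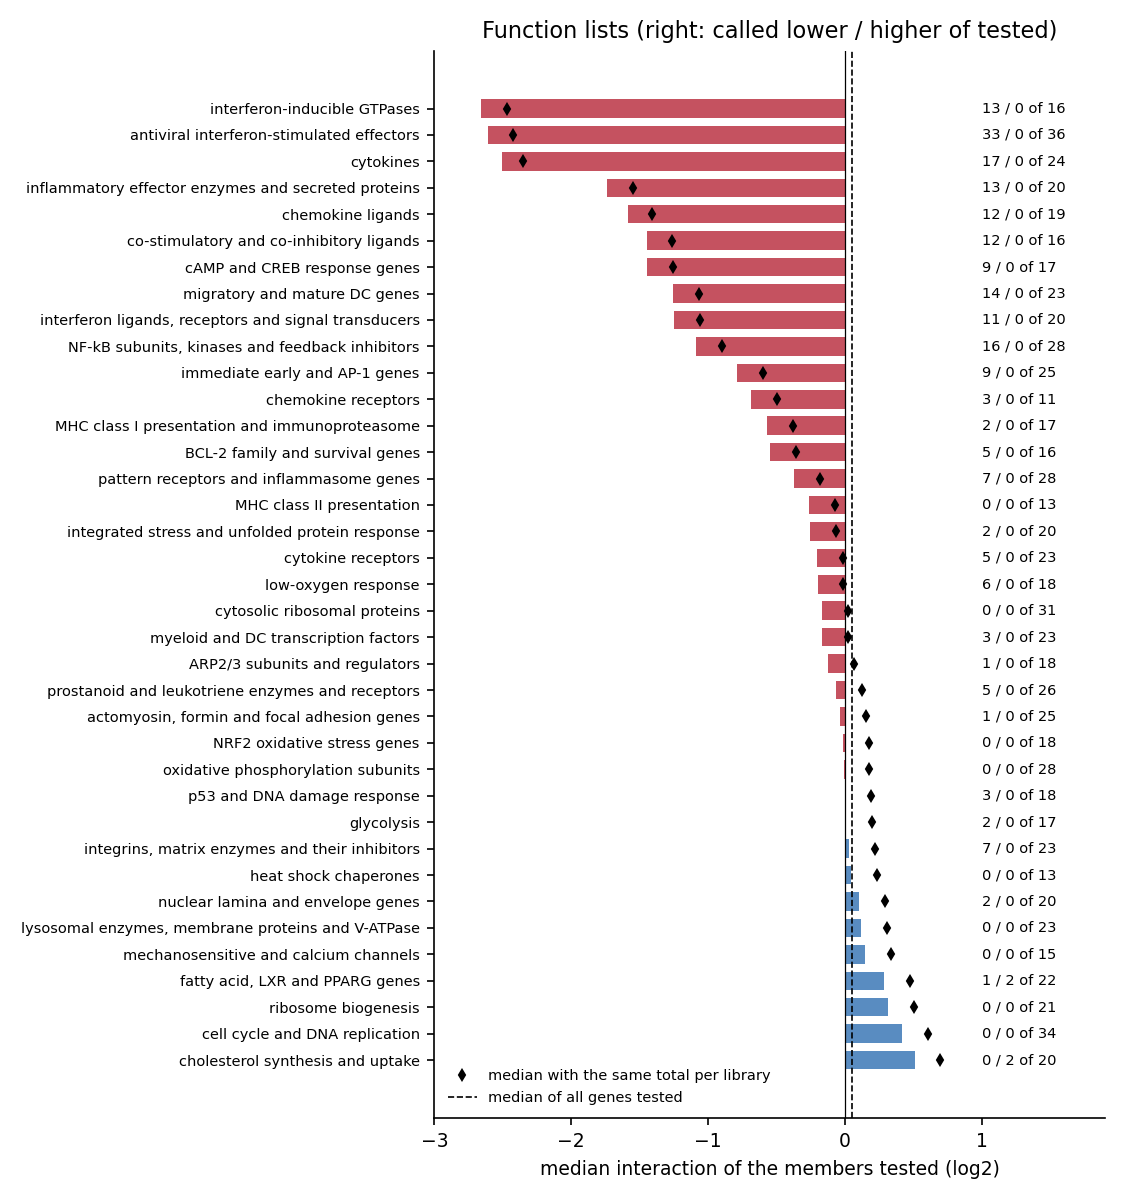
Median interaction (log2, bars) of the members tested in each of the 37 function lists, with diamonds for the same total per library and a dashed line for the median of all genes tested. Interferon-inducible GTPases (-2.66) and antiviral effectors (-2.61) have the most negative medians and cholesterol genes (0.51) the most positive; numbers on the right count members called lower and higher.

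The ARP2/3 complex nucleates branched actin. The counts of structural genes called lower are given beside 6.41% of all genes tested. Of 18 ARP2/3 subunits and regulators, 1 was called lower, the actin regulator *Cyfip1* (-1.05), and the median of -0.12 turned to 0.07 with the same total per library. *Actr2* and *Actr3*, which form the core of the complex, had interactions of -0.20 and -0.24, neither of which passed the test with the same total per library. Of 25 actomyosin and adhesion genes 1 was called lower, *Mylk*, myosin light chain kinase (-2.44), which fell by 2.17 on the log2 scale in cPLA_2_ KO DCs. By the adjusted p alone 9 actomyosin genes were lower and 1 higher, which turned to 5 and 11 with the same total per library. Of 20 nuclear lamina and envelope genes 2 were called lower: *Emd*, emerin (-1.29), and *Lmnb1*, lamin B1 (-1.14). By the adjusted p alone 7 envelope genes were lower and 7 higher (6 and 11 with the same total per library), with a median of 0.10. *Lmna*, lamin A/C, rose in both genotypes, with an interaction of -0.54. None of 15 mechanosensitive and calcium channel genes was called, with 2 lower and 6 higher by the adjusted p alone. Of 23 integrins and matrix genes 7 were called lower, led by *Timp1*, an inhibitor of metalloproteinases (-4.89), but the list median was 0.03, and by the adjusted p alone 10 were lower and 6 higher (8 and 11 with the same total per library).

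Metabolic and stress lists differed in their calls. Beside 6.41% of all genes tested, called lower were 2 of 17 glycolysis genes (*Pfkfb3*, -2.09, and *Hk2*, -1.64), 6 of 18 low-oxygen genes (led by *Ddit4*, -2.77), 2 of 20 integrated stress genes (*Trib3*, -1.18, and *Ppp1r15a*, -1.25) and 3 of 18 p53 and DNA damage genes (led by *Gadd45b*, -2.42). By the adjusted p alone 5 glycolysis genes were lower and 1 higher, which turned to 4 and 10 with the same total per library. For p53 and DNA damage genes 8 and 4 turned to 6 and 9. Low-oxygen genes had 8 and 4 (7 and 5 with the same total per library), and integrated stress genes 7 and 2 (6 and 4). Medians moved from 0.01 to 0.20 for glycolysis and from 0.00 to 0.19 for p53 and DNA damage genes. Among the low-oxygen genes, *P4ha2*, a collagen prolyl hydroxylase with few reads, had an interaction of -2.30 (-2.47 and -1.60 at pseudocounts of 0.5 and 5). This interaction lost the call in 9 of the 12 fits that left out a library (range -2.96 to -1.71). No member was called among 28 oxidative phosphorylation subunits, 31 ribosomal proteins, 13 heat shock chaperones, 23 lysosomal genes or 18 NRF2 genes. By the adjusted p alone, the lower and higher members were 2 and 0, 10 and 0, 3 and 1, 4 and 7, and 5 and 7, in that order. With the same total per library they were 1 and 16, 0 and 2, 3 and 6, 2 and 14, and 5 and 8, so the prevailing direction turned from lower to higher for oxidative phosphorylation, ribosomal proteins and heat shock chaperones. All 18 NRF2 genes, which protect against oxidants, rose with confinement in both genotypes, by medians of 1.91 for cPLA_2_ WT and 1.97 for cPLA_2_ KO. The list's median interaction of -0.01 turned to 0.18 with the same total per library. The most abundant, *Fth1*, the ferritin heavy chain, was at 266291, 260355 and 267455 and 353848, 305535 and 339021 in nonconfined libraries and at 912475, 880577 and 900559 and 731066, 718928 and 783284 in confined cPLA_2_ WT and cPLA_2_ KO libraries. It was higher after confinement in both genotypes, with an interaction of -0.60 (95% confidence interval -0.75 to -0.45).

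Positive interactions were smaller. Of 20 cholesterol synthesis and uptake genes, 2 were called higher and none lower, beside 1.59% and 6.41% of all genes tested. By the adjusted p alone 17 were higher and 1 lower, beside 13.9% and 16.6% of all genes tested. Their median was 0.51 against 0.05 for all genes tested. With the same total per library these medians were 0.70 and 0.24. *Dhcr7*, which makes cholesterol from its last precursor, was at 960.1, 912 and 1063 in nonconfined cPLA_2_ WT and 657, 724 and 729.8 in nonconfined cPLA_2_ KO libraries, and at 382, 345 and 369.6 and 726, 711 and 728 after confinement. The gene fell in cPLA_2_ WT DCs only by the test, and the order of the genotypes reversed (interaction 1.46, SE 0.11, limma adjusted p = 6.5e-10). *Lss*, lanosterol synthase, had an interaction of 1.02. The nonconfined genotypes differed by the adjusted p for 18 of these 20 genes, beside 13.2% of all genes tested. Of 22 fatty acid, LXR and PPARG genes, 2 were called higher, the desaturases *Scd1* (1.26) and *Scd2* (1.29), and 1 lower, the cholesterol exporter *Abca1* (-2.64). These counts stand beside 1.59% called higher and 6.41% called lower of all genes tested. By the adjusted p alone 14 of the 22 were higher and 2 lower. *Scd2* was at 6669.6, 6041 and 6363 in nonconfined cPLA_2_ WT against 2611, 3196 and 3107 in nonconfined cPLA_2_ KO libraries and at 1839, 1736 and 1856 and 2256, 2015 and 1942 after confinement. The genotype difference was thus the larger before confinement. None of 34 cell cycle or 21 ribosome biogenesis genes was called, but 27 and 16 were higher and 0 and 0 lower by the adjusted p alone, with medians of 0.42 and 0.31 (0.61 and 0.50 with the same total per library). The nonconfined genotypes already differed by the adjusted p for 27 of 34 cell cycle and 8 of 21 ribosome biogenesis genes, beside 13.2% of all genes tested. The median of cPLA_2_ KO minus cPLA_2_ WT for cell cycle genes was -0.27 before and 0.11 after confinement, and for ribosome biogenesis genes -0.19 and 0.27. Median changes of cell cycle genes were -0.93 for cPLA_2_ WT and -0.64 for cPLA_2_ KO.

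Among the named genes with the most positive interactions were genes of neutrophil primary granules and granulocyte progenitors. Of 9 genes in this list 7 were called higher, beside 1.59% of all genes tested, with a median of 1.34. *Elane*, neutrophil elastase, was at 1026, 874 and 1002 and 869, 809 and 865 in nonconfined cPLA_2_ WT and cPLA_2_ KO libraries and at 141, 116 and 141 and 504, 447 and 467 after confinement. It fell in both genotypes and further in cPLA_2_ WT DCs (interaction 2.02, SE 0.13, limma adjusted p = 1.01e-10). *Ms4a3*, *Mpo* and *Prtn3* had interactions of 1.93, 1.49 and 1.49. The summed level of the list was 9410.2 ± 242 (SD, n = 3) for cPLA_2_ WT and 10156 ± 393 for cPLA_2_ KO before confinement, and 2605 ± 135 and 6032 ± 198 after it, with *Mpo* the most abundant.

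Other cell types were present in lists of their own. Later neutrophil genes had a median interaction of 0.50, with 8 of 13 higher and 2 lower by the adjusted p alone, *Lcn2* being the 1 member called lower. After confinement they summed to 278675 normalized counts for cPLA_2_ WT against 514738 for cPLA_2_ KO. Mast cell and basophil markers, of which *Tpsab1* was at 0 in all libraries, summed to 10812 and 15719 before confinement and to 16864 in cPLA_2_ WT but 9124 in cPLA_2_ KO libraries after it. Without *Hdc*, the most abundant, the sums were 10077 and 14679 before confinement and lower in both genotypes after it, at 4494 and 7666. The list's median interaction was 0.22, and the higher sum in confined cPLA_2_ WT libraries thus rests on *Hdc*. Macrophage and monocyte markers summed to 310834 and 348842 before and 338902 and 401263 after confinement, and without *Lyz2*, lysozyme, the most abundant, to 72331 and 80961 before and 71285 and 79702 after it. Eosinophil markers summed to 7372 and 16675 after confinement. The part of these other cells in the interactions was not tested. The median interaction of the eosinophil list was 0.18, with 5 of 7 members above 0 and *Ccr3* the member called lower. Beside 6.41% of all genes tested, calls lower in the other marker lists were 1 of 14 DC, 2 of 15 macrophage, 1 of 10 mast cell and basophil (*Hdc*, which makes histamine, -3.58), 1 of 7 eosinophil, 1 of 7 lymphocyte and 0 of 3 erythroid and megakaryocyte genes. Other positive interactions belonged to *Entpd4 // Entpd4b*, a joint entry of near-identical genes (3.03), *Nat8l* (1.72), *Chdh*, choline dehydrogenase (1.57), *Tchh*, trichohyalin (1.53), and the noncoding RNA *Kcnq1ot1*, whose libraries spread widely (129, 456 and 253 in confined cPLA_2_ KO libraries) and whose interaction of 1.54 lost its call in 8 of the 12 fits that left out a library (range 0.95 to 2.01).

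Promoters were searched for motifs of factors that act in interferon, NF-κB, cAMP and stress responses. RefSeq promoter windows of GRCm38.p6, from 250 bases before to 50 after the start, matched 10758 of 13676 tested genes with a symbol, 703 of 915 called lower and 130 of 163 called higher. The symbol *G530011O06Rik* is held by 2 of these entries, called in opposite directions, and counts once in the motif shares, with those called lower, which leaves 10757 genes tested and 129 called higher. The interferon-stimulated response element, TTTC and TTTC with any 2 bases between them on either strand, was found in 9.44% of windows of genes called lower, 0.592% of those called higher, 3.15% of those of all genes tested and 3.44% of all windows. It was in 70.3% of the windows of antiviral effectors and GTPases called lower, and in 6.84% of the other windows called lower. The NF-κB motif, GGG and TTTCC with any 2 bases between them, was in 3.22%, 1.18%, 1.81% and 1.63%, and the AP-1 motif TGANTCA in 10.4%, 8.88%, 5.54% and 7.81% of windows in the same order. The GAS motif TTCNNNGAA was in 8.11%, 6.51%, 6.98% and 8.3%, the CRE TGACGTCA in 2.67%, 0.592%, 2.92% and 1.79%, and the C/EBP motifs TTGCGCAA and TTGCNNAAT in 2.56%, 3.55%, 2.05% and 2.53%. The antioxidant element TGACNNNGC, which can overlap the AP-1 motif, was in 13.9%, 13%, 14.3% and 12.4%. These shares are descriptions without a test, and a match is not a binding site. Of the genes under the naming rule that have a window, 20 of 69 called lower and 0 of 12 called higher hold the interferon or NF-κB motif, and those of *Il12b*, *Ptgs2*, *Ptges*, *Oasl1*, *Irf7*, *Socs3*, *Ifnb1* and *Tnfsf15* hold neither. A few windows picked because they hold a match are shown 5′ to 3′ on the strand of the gene, with matches to the interferon or NF-κB motif on either strand in capitals. *Ifit1* (plus strand, chr19:34640639-34640938), *Rsad2* (minus strand, chr12:26456403-26456702) and *Cxcl10* (minus strand, chr5:92348840-92349139) hold the interferon motif, *Gbp5* (plus strand, chr3:142496684-142496983) holds both, and *Il6* (plus strand, chr5:30012864-30013163) and *Nfkbia* (minus strand, chr12:55492598-55492897) hold the NF-κB motif.
Ifit1: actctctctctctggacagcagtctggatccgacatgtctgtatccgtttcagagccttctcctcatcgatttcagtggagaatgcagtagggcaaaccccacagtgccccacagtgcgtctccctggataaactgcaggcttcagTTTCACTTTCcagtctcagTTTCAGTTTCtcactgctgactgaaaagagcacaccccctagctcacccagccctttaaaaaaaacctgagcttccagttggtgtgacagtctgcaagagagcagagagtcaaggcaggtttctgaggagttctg
Rsad2: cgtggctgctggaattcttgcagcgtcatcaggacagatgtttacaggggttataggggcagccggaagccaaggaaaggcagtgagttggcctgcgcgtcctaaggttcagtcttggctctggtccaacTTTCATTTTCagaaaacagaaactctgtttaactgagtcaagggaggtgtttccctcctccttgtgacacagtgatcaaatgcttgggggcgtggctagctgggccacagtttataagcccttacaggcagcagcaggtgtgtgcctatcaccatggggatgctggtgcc
Cxcl10: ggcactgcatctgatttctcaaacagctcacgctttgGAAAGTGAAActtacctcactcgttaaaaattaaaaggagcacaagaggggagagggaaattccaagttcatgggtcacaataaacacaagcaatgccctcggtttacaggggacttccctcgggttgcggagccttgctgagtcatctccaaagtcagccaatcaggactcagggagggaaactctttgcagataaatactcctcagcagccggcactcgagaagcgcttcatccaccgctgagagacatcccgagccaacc
Gbp5: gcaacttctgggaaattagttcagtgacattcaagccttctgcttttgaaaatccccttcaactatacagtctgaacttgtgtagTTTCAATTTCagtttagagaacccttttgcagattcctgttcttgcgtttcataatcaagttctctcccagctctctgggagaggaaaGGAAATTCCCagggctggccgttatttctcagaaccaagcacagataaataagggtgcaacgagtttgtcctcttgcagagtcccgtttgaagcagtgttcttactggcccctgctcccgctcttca
Il6: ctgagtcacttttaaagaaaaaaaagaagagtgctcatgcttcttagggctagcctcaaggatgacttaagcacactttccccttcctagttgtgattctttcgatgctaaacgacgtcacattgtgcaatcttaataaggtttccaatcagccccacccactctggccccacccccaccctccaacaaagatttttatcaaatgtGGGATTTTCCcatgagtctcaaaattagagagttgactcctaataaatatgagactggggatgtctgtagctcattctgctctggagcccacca
Nfkbia: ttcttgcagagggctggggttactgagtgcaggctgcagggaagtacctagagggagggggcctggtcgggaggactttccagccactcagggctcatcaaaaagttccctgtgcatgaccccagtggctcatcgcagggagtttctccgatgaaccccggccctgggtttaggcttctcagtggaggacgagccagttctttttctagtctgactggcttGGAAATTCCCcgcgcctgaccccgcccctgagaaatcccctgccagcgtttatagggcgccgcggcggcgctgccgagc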

How the data were processed

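The deposited table holds signal values that the authors made by mapping reads to mm39 with STAR 2.7.5a, counting them with featureCounts 1.5.0 and scaling counts with DESeq2 size factors in R 3.5.3, per the submitters' processing notes and methods. These normalized counts were not treated as raw counts. Of all values, 100% gave whole reads after rescaling (tolerance 0.0001). Of 62197 genes, 37020 carry no symbol. The range of reads in each group is given with the results.

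The scale log2(normalized count + 1) was fitted with limma 3.58.1 in R 4.3.3 (trend, a mean per condition, 12 libraries). Genes with at least 10 normalized counts in 3 libraries were tested, with Benjamini-Hochberg adjustment over all of them. The changes within a genotype come from the same fit and share its libraries with the interaction. The fit was tested on simulated data. Genes in joint entries were not matched to lists.

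The members and the 37 function and 8 marker lists were chosen with earlier results of these data known. Named genes were the 10 most negative and 10 most positive called genes with a symbol and a mean of at least 100 normalized counts, up to 3 called members per list and direction with its most abundant member, cell type markers, sex-linked genes, *Pla2g4a*, *Ccr7*, *Actr2*, *Actr3* and *Ikbkb*. LPS libraries are no arm of this comparison, and their Y-linked RNA did not follow their labels, so they entered only an alternative fit. The fit was repeated at a pseudocount of 0.5 or 5, unfiltered or with a minimum of 100, with equal library totals, with TMM factors, with edgeR 4.0.16 and DESeq2 1.42.0 on recovered reads, over all 18 libraries, with a replicate block, at the thresholds of the study's methods, and without each library in turn. Figures were drawn with matplotlib 3.10.9.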

Additional observations from a re-analysis of the deposited data

Results flagged for a closer look

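Some named genes changed more than a doubling in opposite directions in the genotypes, and the interaction tested this difference. The rise in cPLA_2_ WT and the fall in cPLA_2_ KO DCs gave interactions of -4.89 for *Ifit1*, -4.53 for *Tgtp1*, -4.32 for *Gbp5*, -3.62 for *Tgtp2*, -3.60 for *Gem*, -3.06 for *Ccr3*, -2.60 for *Irf7* and -2.16 for *Il2ra*. Confined cPLA_2_ WT libraries lay above all nonconfined libraries of their own genotype and confined cPLA_2_ KO libraries below those of theirs for each of these genes.

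In the libraries of LPS-treated cells, which entered only an alternative fit, the Y-linked gene *Ddx3y* was at 1271, 0 and 662 normalized counts in the libraries labelled cPLA_2_ WT and at 2.12, 1476 and 783 in those labelled cPLA_2_ KO. High and low libraries occurred under both labels, unlike in the nonconfined and confined groups.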

How the results depend on the processing

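The counts of genes called were 1106 lower and 274 higher, and 2868 and 2403 by the adjusted p alone. A filter of 100 normalized counts, which tests fewer genes, gave 104 higher calls. The same total per library gave 591 higher calls and 5403 by the adjusted p alone, as this scaling shifts all interactions upwards. The thresholds of the study's methods (unadjusted p of at most 0.05, fold of at least 1.5) gave 1831 lower and 1148 higher, by their construction more. Leaving out each library in turn gave 981 to 1092 lower and 209 to 327 higher calls, and 2574 to 2954 and 2037 to 2560 by the adjusted p alone. edgeR called 1059 lower and 265 higher, and DESeq2 1137 and 262, of which 1039 and 233, and 1078 and 228, were shared with limma. Among named genes, 2 results counted as reversed: *Atp5b* and *Trpv2* turned positive, to 0.15 and 0.16, with the same total per library. As this scaling shifts all interactions upwards, other small negative values can change sign as well. Over all named genes and alternatives, 4308 results kept their side of the threshold, and their direction where they had passed it, 69 fell short of it and 63 newly passed it. *Pla2g4a* did not pass it under any alternative run.

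A term for the replicate number (replicate block) gave 1119 lower and 316 higher calls, 2968 and 2535 by the adjusted p alone, and -0.20 for *Pla2g4a*. Residual correlations of libraries with the same number were 0.37, 0.22 and 0.04 between the confined groups, 0.21, 0.12 and -0.07 between nonconfined and confined cPLA_2_ WT, and 0.18, 0.23 and -0.02 between nonconfined cPLA_2_ WT and confined cPLA_2_ KO. Between the other groups they ranged from -0.02 to 0.06. *Xist* was lowest in replicate 1 and highest in replicate 2 of every group. The labels state no pairing, and whether libraries with the same number share a source is not known, so the fit reported above held no such term.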
